A study of Homo sapiens with 16 samples.

Results

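The positions described here lie in long noncoding RNAs (lncRNAs) other than MALAT1, NEAT1 and the snoRNA host transcripts. They were chosen by annotation alone: autosomal positions that the deposited tables assign to a gene of type lincRNA, antisense, processed transcript, sense overlapping, sense intronic or bidirectional promoter lncRNA. The genes MALAT1, NEAT1, GAS5, ZFAS1, EPB41L4A-AS1 and SNHG were left out by name. They number 1938 of the 719918 positions in the 10 tables, or 0.269%, and fall in 345 genes. Of these positions, 611 are uridines (U), 464 are C, 471 are G and 392 are A. U made up 31.5% of them and 31.7% of all other listed positions.

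CMC is a carbodiimide that stays on pseudouridine after mild alkali, and the bulky base then blocks reverse transcriptase. Pseudouridine is made from U by synthases that either read the RNA sequence and fold themselves, such as TRUB1 and PUS7, or are directed by H/ACA guide RNAs, as dyskerin, the product of DKC1, is. LncRNAs share capping, splicing and polyadenylation with mRNAs but are not translated. Many of their annotated exons overlap or contain sequence of other RNAs, so a read assigned to a lncRNA need not come from it.

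Stops were profiled in polyA+ RNA fragmented to about 250 nt. The groups, each of 2 replicates, were HCT116-shDKC1-1 cells (shDKC1), HCT116 cells made to express a short hairpin against DKC1, with CMC and Terminator and without CMC (CMC-). HCT116, a human colorectal carcinoma line, was profiled with CMC and Terminator, with CMC alone and CMC-, and HEK293T, a human embryonic kidney line, with the same 3 treatments. Terminator is a nuclease that degrades RNAs carrying a single phosphate at their 5′ end. The labels list RA3 and DA3 for every library, AP5 for every Terminator library, and RE (HEK293T) or XhoI (HCT116 and shDKC1) beside Terminator, without spelling them out. They do not say whether replicates were separate cultures, so p-values measure the spread between these samples, which may be technical. They describe shDKC1 by a single hairpin number and no second hairpin was analysed here.

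Each table pairs a treated library with a control library. A stop ratio is the percentage of reads covering a base whose reverse transcription stopped there. To be listed, a position needed 5 or more stop reads in the treated library, 1 or more in the control and a ratio in the treated library that was not below the control's. Every treated value is therefore at or above its control by construction, and nothing is read from that direction. Absence from a table does not show absence of a stop. The library totals were 8.65 to 31.3 M reads. The knockdown target could be checked only weakly. DKC1 had at most 6 and 2 covering reads at a listed base in the shDKC1 CMC- libraries, against 16 and 20 in the HCT116 CMC- libraries, with 1 to 3 bases listed per table. Of 10 epithelial marker genes, 5 or 6 were listed in each HCT116 and shDKC1 table and 1 or 2 in each HEK293T table. Among the 10, CDX2 went the other way. It had 5 and 8 listed bases in the HEK293T Terminator tables, 1 in shDKC1 replicate 2 and none in any HCT116 table. CEACAM5, LGALS4 and VIL1 were listed in no table. Of 6 HEK293T markers, none was listed in HCT116 or shDKC1 tables and 2 to 4 were listed in HEK293T tables. The HCT116 tables with CMC alone carry control columns that no labelled library claims, so these are called control columns here.

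The sequences below carry the results that follow: the called U at small RNA genes, the U of DANCR and NORAD on their own sequence, called bases of AC009133.5 and MIR663AHG that share mRNA and rRNA sequence, and a base of AD000090.1 beside its counterpart in 28S rRNA. Each is 29 bases, read 5′ to 3′ on the RNA's strand in build hg38 with T for U, with the listed base in capitals. The lncRNA letters come from the deposited tables, and the 28S rRNA letters from the tables' entry for RNA28SN2.
AC051619.8, chr15:45200417-45200445, minus strand: gcagcaacctcggtTcgaatccgagtcac
AC051619.8, chr15:45200458-45200486, minus strand: tcgccgtgatcgtaTagtggttagtactc
AL355075.4, chr14:20343396-20343424, minus strand: accactttttcccaTagggcggagggaag
AC073140.1, chr7:148941520-148941548, plus strand: ttgatttaacattgTctccccccacaacc
DANCR, chr4:52712853-52712881, plus strand: gggcgggccacgcgTgcgggacaggaacc
NORAD, chr20:36050948-36050976, minus strand: agagaactgccaagTcagttccggtccgg
AC009133.5, chr16:29808688-29808716, plus strand: acatgaaggtgcacAgccagggtcctcac
MIR663AHG, chr20:26208413-26208441, minus strand: ccacggtgggggcgCgccggtctcccgga
AD000090.1, chr19:35575657-35575685, plus strand: ccatggaagtcagaAtccactaaggagtg
RNA28SN2, chr21:8215859-8215887, plus strand: ccatggaagtcggaAtccgctaaggagtg

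Most of the lncRNA positions shared their sequence or their locus with another kind of RNA. Own sequence meant that the 31-base window, as the tables give it, held no run of 21 bases listed for a position outside these lncRNAs. The whole window also matched no annotated transcript of another gene, and the position lay more than 20 bases from a small RNA gene. Shorter runs shared with annotated RNAs that were not listed were not checked, so own sequence may hold some of them. By these rules 863 positions (44.5%) in 246 genes were own sequence, 293 of them U. The other 1075 (55.5%) were shared: 522 with mRNAs, 309 with rRNA, 57 with pseudogenes and 55 with other annotations. The remaining 132 lay at or beside small RNA genes or shared sequence with them. In 117 cases another table named the same position for another gene. The base in the tables equalled the GENCODE 29 transcript base at all 1752 positions with a matching transcript, and 186 positions had none.

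The positions were concentrated in few genes. The 10 genes with most positions held 950 of them (49.0%), while 188 genes held 1 each and 29 genes held 10 or more. MIR663AHG, annotated as a microRNA host on chromosome 20, led with 187 positions. Of these, 184 were classed as rRNA sequence by the rules above, the looser rule included, and 140 shared a run of 21 bases with rRNA. AD000090.1 on chromosome 19 followed the same pattern, with 124 and 90 of its 128. AC009133.5 had 124, of which 121 matched the same-strand mRNA of MAZ, a zinc finger transcription factor whose gene it overlaps. AC073140.1 had 49, of which 47 lay inside the RefSeq gene of RNY5, a Y RNA bound by the Ro60 protein. AL359924.1 had 41, of which 31 matched an mRNA and 10 a pseudogene.

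Other leading genes were mostly their own sequence. VPS9D1-AS1, an antisense transcript of the VPS9D1 locus on chromosome 16, had 131 positions, all own. NORAD, a cytoplasmic RNA that binds PUMILIO proteins, had 105, of which 84 were own. DANCR had 84 with 82 own, UCA1 had 63 with 59 own and TUG1 had 38, all own. The plot of leading genes by source of sequence shows this split.

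**Figure D1:**
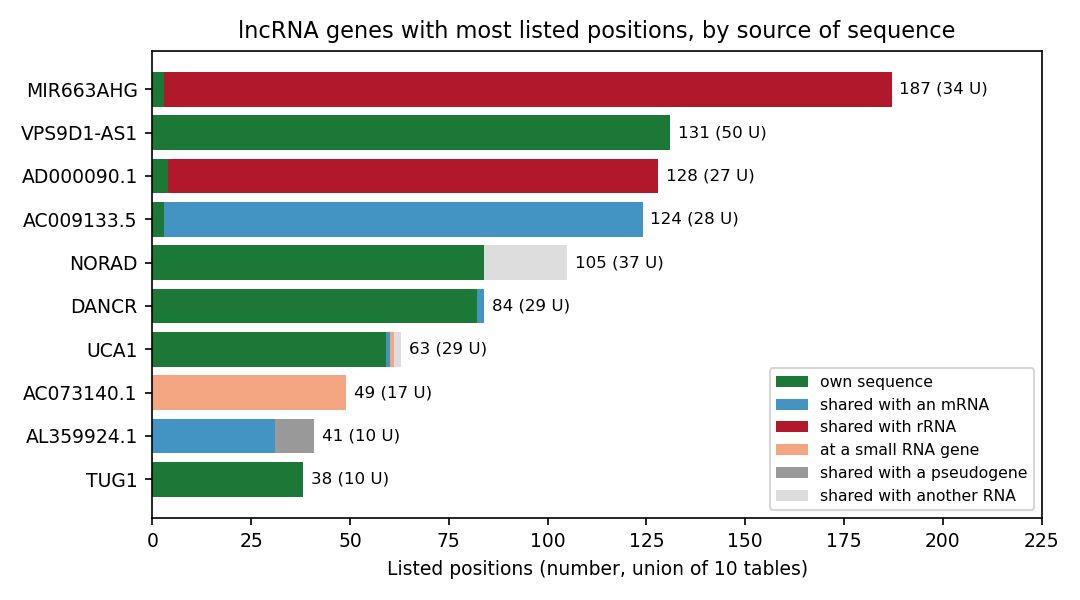
Number of listed positions in the 10 lncRNA genes with most of them, over all 10 tables, with the bar split by source of sequence and the total and number of U at its end. MIR663AHG and AD000090.1 are almost wholly classed as rRNA sequence and AC009133.5 as mRNA sequence. VPS9D1-AS1, DANCR, UCA1 and TUG1 are mostly or wholly own.

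By annotated type, 739 positions were in processed transcripts, 577 in antisense genes, 494 in lincRNAs, 51 in sense intronic, 43 in bidirectional promoter and 34 in sense overlapping genes. Own sequence made up 362 of the antisense, 247 of the lincRNA, 204 of the processed transcript, 39 of the bidirectional promoter, 9 of the sense intronic and 2 of the sense overlapping positions. Of 11 abundant or cytoplasmic lncRNAs listed for this work, 4 had positions: NORAD, DANCR, TUG1 and OIP5-AS1, 232 in all. Of 15 lncRNAs of chromatin, imprinting and HOX clusters, 4 had positions: KCNQ1OT1 with 8, HOTAIRM1 with 2, and HAGLR and HOXA-AS2 with 1 each. Of 20 cancer-associated lncRNAs, 3 had positions: UCA1 with 63, PVT1 with 7 and CRNDE with 4. Among microRNA hosts, DLEU1 had 3 and DLEU2 had 1 beside MIR663AHG. The 67 genes named as antisense to another gene held 279 positions and the 28 LINC genes held 75. The remaining 250 genes, mostly known by clone names, held 1584.

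Few positions recurred between libraries. Over all tables, 1177 of the 1938 were listed in 1 table only and 761 in 2 or more. The tables of shDKC1 with Terminator listed 158 of 638 positions in both replicates (24.8%), against 31.4% of all listed positions of any RNA. The share was 193 of 628 (30.7%) in HCT116 with Terminator and 66 of 290 (22.8%) in HCT116 with CMC alone, against 34.2% and 24.8% of all positions. In HEK293T it was 181 of 803 (22.5%) with Terminator and 113 of 536 (21.1%) with CMC alone, against 27.3% and 21%. Own-sequence positions in both replicates numbered only 27, 31, 10, 44 and 7 in these same 5 pairs of tables.

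Coverage was low where the sequence was own. In the Terminator tables of shDKC1 and HCT116 the median own position had 11 to 14 covering reads in the treated library, against 91 to 102 at all other listed positions of the same table. In the HEK293T tables the own medians were 20.5 to 31.2 reads, against 55.2 to 76.0 at the rest. With at least 5 stop reads needed for listing, thin coverage goes with high ratios. The own median stop ratio was 55.6% and 46.2% in the shDKC1 Terminator libraries, against 39.1% and 26.7% at the same positions in their CMC- libraries. In HCT116 it was 59.1% and 58.6% with Terminator, against 33.3% and 42.4% without CMC. In HEK293T it was 20.1% and 24.4% with Terminator, against 9.93% and 12.1% without CMC.

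Positions at which every covering read stopped made up 13.5% to 20.0% of own positions in the shDKC1 and HCT116 Terminator tables and 0.868% to 1.21% of all other positions there. Positions with rRNA sequence were at the other end. Their median coverage ran from 159 to 912 treated reads per table, and their median stop ratio from 3.40% to 6.30% in treated libraries, against 2.62% to 5.82% in controls.

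Over all lncRNA U, the median stop ratio averaged 24.4% ± 0.842 in shDKC1 with CMC and Terminator, against 11.1% ± 0.521 without CMC (SD of the library medians, n = 2). It averaged 20.5% ± 1.77 in HCT116 with Terminator and 9.72% ± 1.73 without CMC, and 14.4% ± 2.07 with CMC alone and 7.87% ± 0.687 in the control columns. In HEK293T it averaged 19.1% ± 1.86 with Terminator and 10.2% ± 1.24 without CMC, and 15.3% ± 0.257 with CMC alone and 8.41% ± 1.09 at the positions of the same CMC- libraries listed there. For all listed U of any RNA the treated medians were 10.7% and 9.93% in shDKC1, 11.1% and 10.6% in HCT116 with Terminator, and 15% and 15.7% in HEK293T with Terminator. Median coverage differed between these sets. At positions with at least 50 covering reads the lncRNA U medians with Terminator were 5.25% and 5.43% in shDKC1, 8.10% and 5.77% in HCT116 and 9.90% and 11.3% in HEK293T. All listed U at that coverage had medians of 6.07% and 5.76%, 6.33% and 5.93%, and 8.43% and 8.52% in these libraries. The lncRNA medians were thus below those of all U in shDKC1, above in HEK293T and on both sides in HCT116 once thin positions were left out. Non-U positions of lncRNAs had treated medians of 19.2% and 23.6% in shDKC1 with Terminator, beside 25.0% and 23.8% for the U. In HCT116 with Terminator they had 15.6% and 15.1%, beside 19.2% and 21.7% for the U. In HEK293T they had 15.5% and 16.1% with Terminator, beside 17.8% and 20.4% for the U, and 8.07% and 8.69% with CMC alone, beside 15.1% and 15.4% for the U.

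The own-sequence genes were listed in different cell lines. The tables differ in size, with 99369 to 114563 positions of all RNAs in the Terminator tables of shDKC1 and HCT116, 87358 and 112208 in those of HCT116 with CMC alone, and 157330 to 234168 in the HEK293T tables. VPS9D1-AS1 had 71 and 52 positions in the HEK293T Terminator tables and 16 and 18 with CMC alone, but 0 to 3 in each HCT116 or shDKC1 table. DANCR, an RNA known for its part in keeping progenitor cells undifferentiated, had 34 and 31 with Terminator and 19 and 25 with CMC alone in HEK293T, against 0 to 5 in each table of the other cells. TUG1, a spliced nuclear and cytoplasmic RNA, had 10 and 14, then 6 and 9, in HEK293T and at most 2 per table elsewhere.

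UCA1, named for its expression in urothelial carcinoma, showed the opposite pattern. It had 7 and 12 positions in the shDKC1 Terminator tables, 15 and 12 in the HCT116 Terminator tables, 20 and 27 in the HCT116 tables with CMC alone, and none in any HEK293T table. PAX8-AS1, which neighbours the thyroid and kidney transcription factor PAX8, had 4 and 10 in shDKC1, 0 and 3 in HCT116 with Terminator, and none in HEK293T. NORAD was listed in all 10 tables, with 6 to 35 positions each. A listing needs stop reads in both libraries of a table, so these counts follow RNA level and depth as well as stops. In bulk RNA, fewer expressing cells and less RNA per cell cannot be told apart. The heat map of listed positions per table gives all the counts.

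**Figure D2:**
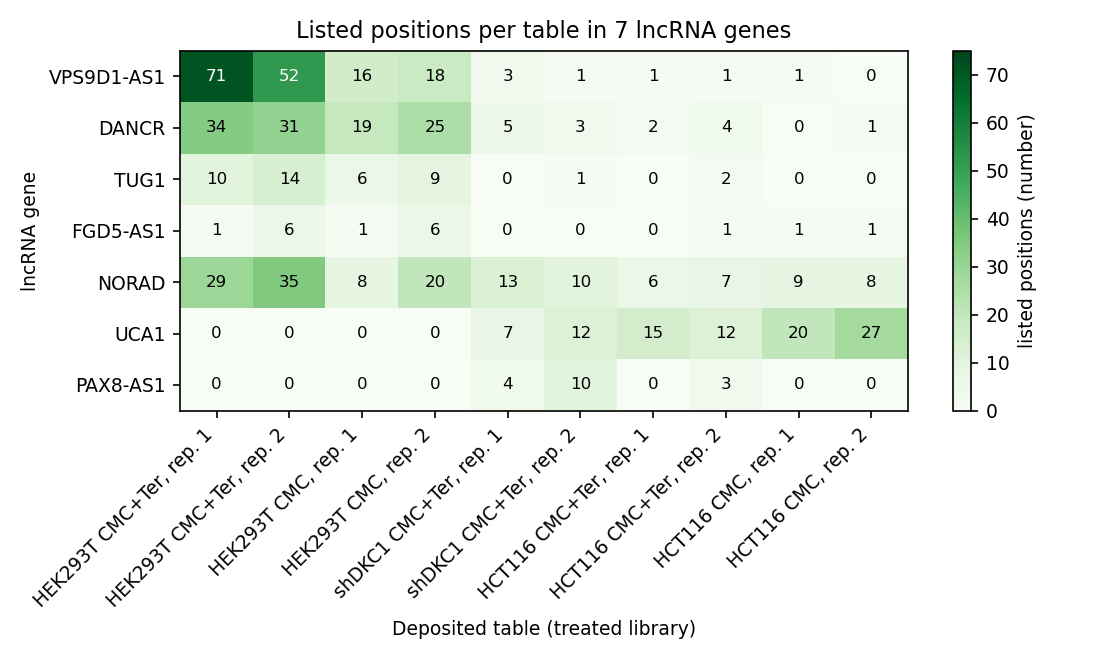
Number of listed positions (colour and digits) for 7 lncRNA genes with mostly own sequence, by deposited table; columns are treated libraries and rows are genes. VPS9D1-AS1, DANCR and TUG1 stand out in the 4 HEK293T tables, UCA1 and PAX8-AS1 appear in HCT116 or shDKC1 tables and in no HEK293T table, and NORAD appears in all 10.

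Within these genes the stops spread along the transcript. Nucleotides are numbered on the transcript that the tables name for each position, which differs between positions of genes such as DANCR and UCA1. VPS9D1-AS1 positions ran from nucleotide 21 to 1702, with 11 of 131 in the first 100 nt, and its median treated ratio was 15.3% and 16.4% in HEK293T with Terminator, against 7.32% and 7.92% in CMC-. NORAD positions ran from nucleotide 56 to 5214, with 7 of 84 own positions in the first 100 nt. Its medians in shDKC1 were 24.0% and 29.3% with Terminator, against 8.33% and 8.71% without CMC. Its medians in HEK293T with Terminator were 18.4% and 16.9%, against 10.5% and 9.23% without CMC.

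DANCR had 32 of 82 own positions in the first 100 nt of the transcript named for each. As these transcripts differ, the counts do not show a weighting to the 5′ end. Its medians were 17.0% and 14.7% in HEK293T with Terminator, against 8.95% and 9.05% in CMC-. UCA1 had 10 of 59 own positions in the first 100 nt, and TUG1 had 11 of 38. UCA1 medians were 40.7% and 31.2% in shDKC1 with Terminator, against 20.0% and 10.8% without CMC, and 36.8% and 25.0% in HCT116 with Terminator, against 9.09% and 9.90%. With CMC alone the HCT116 medians of UCA1 were 18.0% and 14.9%, against 10.2% and 6.25% in the control columns. Different positions enter each table, so these medians are not a comparison between treatments. Positions in 2 or more tables numbered 29 in VPS9D1-AS1, 26 in DANCR, 20 in NORAD, 19 in UCA1, 2 in TUG1 and none in PAX8-AS1 or FGD5-AS1.

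Single positions of these genes rested on few reads. The DANCR U at 52712867, in exon 1, was listed in all 4 HEK293T tables. It had stop ratios of 10.7% and 12.4% with Terminator and 15.8% and 9.59% with CMC alone, against 9.83% and 8.50% in CMC-. With CMC alone replicate 1 was the highest and replicate 2 lay between the controls. The log2 change over CMC- was 0.35 with Terminator (edgeR adjusted p = 0.596) and 0.49 with CMC alone (adjusted p = 0.86). The NORAD U at 36050962, near the 5′ end, stopped 85.0% of 40 reads in HCT116 with Terminator replicate 1 and 84.9% of 53 in shDKC1 with Terminator replicate 2. In its CMC- partners 62.5% of 8 reads were each time counted as stops, so most of these few reads ended here without CMC as well. The base is nucleotide 57 of the transcript named in the tables. It lies upstream of the 5′ end of NORAD in GENCODE, at 36050960 on the minus strand. A read that reaches the 5′ end of an RNA also ends there. Whether these reads stopped at the base or at the end of the RNA was not tested.

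The TUG1 U at 30977897 stopped all 6 and all 5 covering reads in HEK293T with CMC alone, against 24.2% and 75% of about 4 reads in CMC-. The VPS9D1-AS1 U at 89717846 had 22.6% and 15% with Terminator, against 17.9% and 8.82% in CMC-. The KCNQ1OT1 U at 2685533, in the antisense RNA of the imprinted KCNQ1 locus, was listed once, with 5 of 8 reads stopping in HEK293T with Terminator against 2 of 8 in CMC-. The HOTAIRM1 U at 27099135 stopped 25.3% of reads, against 9.09%, in replicate 1 of the same comparison. The PAX8-AS1 U at 113235934 stopped 7 of 20 reads in HCT116 with Terminator replicate 2, against 1 of 17 in CMC-. Of the positions in this and the preceding paragraph, only DANCR 52712867 was listed in every table of a fit with enough stop reads to be tested.

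Where both replicates listed an own-sequence U, the treated ratio was at least 2-fold the control in both for 2 of 7 in shDKC1 with Terminator (28.6%), against 17.7% of all U of any RNA. The count was 3 of 10 in HCT116 with Terminator and 0 of 6 with CMC alone, against 21.8% and 6.42% of all U. In HEK293T it was 3 of 16 (18.8%) with Terminator and 0 of 3 with CMC alone, against 20.4% and 5.82%. Own-sequence positions of other bases reached 2-fold in both Terminator replicates in 2 of 20 cases in shDKC1, 3 of 21 (14.3%) in HCT116 and 11 of 28 (39.3%) in HEK293T, against 14%, 17.1% and 15.1% of all other bases. With CMC alone they did so in 0 of 4 in HCT116 and 2 of 4 in HEK293T, against 3.45% and 3.69%. The difference of these small counts from the shares over all positions was not tested.

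Differences in stop ratio between treated and CMC- libraries were tested with edgeR's quasi-likelihood test on stop reads with covering reads as offset, with Benjamini-Hochberg adjustment over all positions of all RNAs in a fit. Calls required a change of 2-fold or more and an adjusted p under 0.05. Tested were positions that every table of a fit listed and whose stop reads reached 10 in 2 or more libraries, which left 72 of the 1938 in the HCT116 and shDKC1 fit, 26 in the HEK293T fit and 23 in the HCT116 fit with CMC alone. Own sequence made up 4, 1 and 1 of these. Almost all of what could be tested was therefore rRNA-like, mRNA or small RNA sequence. Listing had already kept only positions whose treated ratio was not below the control's. The minimum of stop reads also selects: of the 72 positions, 54 reached it in CMC- libraries alone and 18 needed treated libraries to reach it, and in HEK293T these numbers were 9 and 17 of 26. Positions that needed treated libraries made up 9 of the 12 calls described next in shDKC1, 10 of 15 in HCT116 and all 3 in HEK293T. For those calls the direction and part of the size were fixed by how positions entered the test, and their folds and p-values describe selected positions.

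With CMC and Terminator over CMC-, 12 of 72 lncRNA positions were called in shDKC1, beside 19.7% of all tested positions. In HCT116 15 of 72 were called, beside 24.9% of all tested positions, and in HEK293T 3 of 26, beside 12.3%. Of the tested lncRNA U, 6 of 23 were called in shDKC1, 6 of 23 in HCT116 and 1 of 12 in HEK293T, beside 21.9%, 27.0% and 17.8% of all tested U. The lncRNA shares lay near or below these backgrounds, with that of U in shDKC1 a little above its background. The median log2 change was 0.42 over the lncRNA positions and 0.57 over all positions in shDKC1, 0.48 and 0.64 in HCT116, and 0.48 and 0.53 in HEK293T.

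With CMC alone no lncRNA position was called. In HEK293T 0 of 26 positions and 0 of 12 U were called, beside 1.4% of all positions and 3.39% of all U, with 1 under an unadjusted edgeR p of 0.05, and DESeq2 called none. In HCT116 against its control columns 0 of 23 positions and 0 of 9 U were called, beside 1.65% and 4.45%, with none under an unadjusted p of 0.05, and DESeq2 again called none. The median log2 change over lncRNA positions was 0.41 and 0.16 in these 2 comparisons, beside 0.29 and 0.20 over all positions. The plot of log2 changes by comparison shows the tested positions beside the quartiles of all positions.

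**Figure D3:**
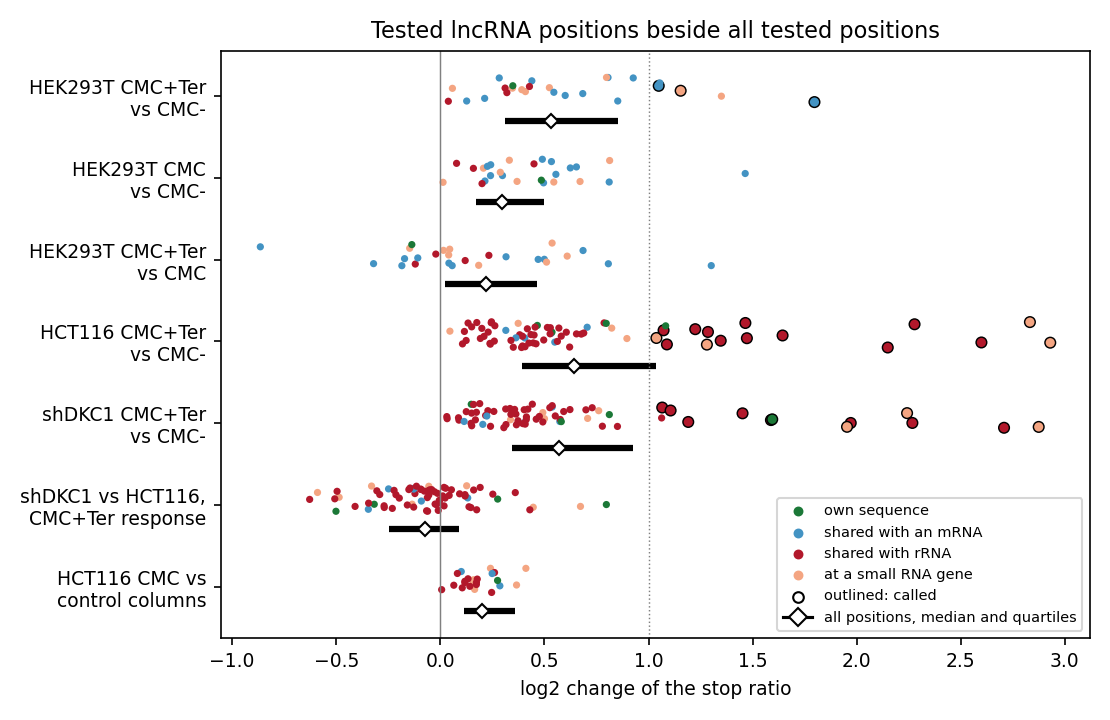
Log2 change of the stop ratio for each tested lncRNA position (points, coloured by source of sequence, outlined where called) in 7 comparisons, with the median and quartiles of all tested positions as a diamond and bar; the dotted line marks 2-fold. Called positions appear in the 3 comparisons of CMC with Terminator against CMC-, and in the comparison of shDKC1 with HCT116 the points lie between -0.63 and 0.80.

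The largest changes at U were in a histidine tRNA gene inside AC051619.8, a sense intronic transcript of the SHF locus on chromosome 15. RefSeq places the tRNA gene TRH-GTG1-8 at 45200413 to 45200484, 72 bases on the minus strand, and other tables name both positions for the tRNA. The U at 45200431 is base 54 of the tRNA gene and sits in the GTTCNANNC sequence that TRUB1 recognizes in the T arm of tRNAs. It stopped 9 of 36 and 12 of 52 reads (25.0% and 23.1%) in shDKC1 with Terminator, against 1 of 53 and 3 of 77 (1.89% and 3.90%) without CMC. In HCT116 it stopped 10 of 52 and 14 of 50 (19.2% and 28%) with Terminator, against 2 of 71 and 3 of 96 (2.82% and 3.12%) without CMC. The log2 change was 2.87 in shDKC1 (edgeR adjusted p = 7.20e-05) and 2.93 in HCT116 (adjusted p = 1.68e-05). No CMC- library had over 3 stop reads here, so the base entered the test through its treated libraries. It was called in each of the 14 and 15 alternatives that could be fitted, each on positions chosen in the same way by listing. Here and below, the alternatives include leaving out each library of a fit in turn. Some of these libraries are not part of the comparison, such as shDKC1 libraries for a call in HCT116. Leaving them out keeps all compared libraries, so the counts of alternatives in which a call held are partly fixed in advance.

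In HEK293T the same U had too few stop reads for the test. Its ratios were 31.9% and 22.5% with Terminator and 32.9% and 24.6% with CMC alone, against 20.6% and 5.51% in CMC-. There 1 of the 2 controls lay close to the treated values. HCT116 with CMC alone gave 24.2% in replicate 2, against 5.74% in its control column. Several identical copies of this tRNA exist in the genome and share the 31-base window, so the reads cannot be assigned to 1 gene.

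The U at 45200472, base 13 of the tRNA gene, lies in a TNTAG sequence, the context of PUS7, which modifies tRNAs in the D arm. In shDKC1 it stopped 5 of 24 and 7 of 36 reads (20.8% and 19.4%) with Terminator, against 4 of 90 and 4 of 105 (4.44% and 3.81%) without CMC. In HCT116 it stopped 11 of 37 and 11 of 29 (29.7% and 37.9%), against 2 of 111 and 7 of 88 (1.80% and 7.95%). Only the HCT116 libraries with Terminator reached 10 stop reads, so this base too entered the test through treated libraries. The log2 change was 2.24 in shDKC1 (edgeR adjusted p = 0.00228) and 2.83 in HCT116 (adjusted p = 2.67e-05). Without the coverage offset and with TMM scaling it was 0.37 in shDKC1 (adjusted p = 0.656) and 1.14 in HCT116 (adjusted p = 0.0749), and treated libraries had fewer covering reads here. The shDKC1 call was also lost with library totals (0.79; adjusted p = 0.331) and without replicate 2 of Terminator or CMC- (adjusted p = 0.0694 and 0.0692). The U at 45200501, upstream of the tRNA gene, stopped 85.8% to 100% of reads in treated libraries and 73.6% to 93.9% in controls.

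**Figure D4:**
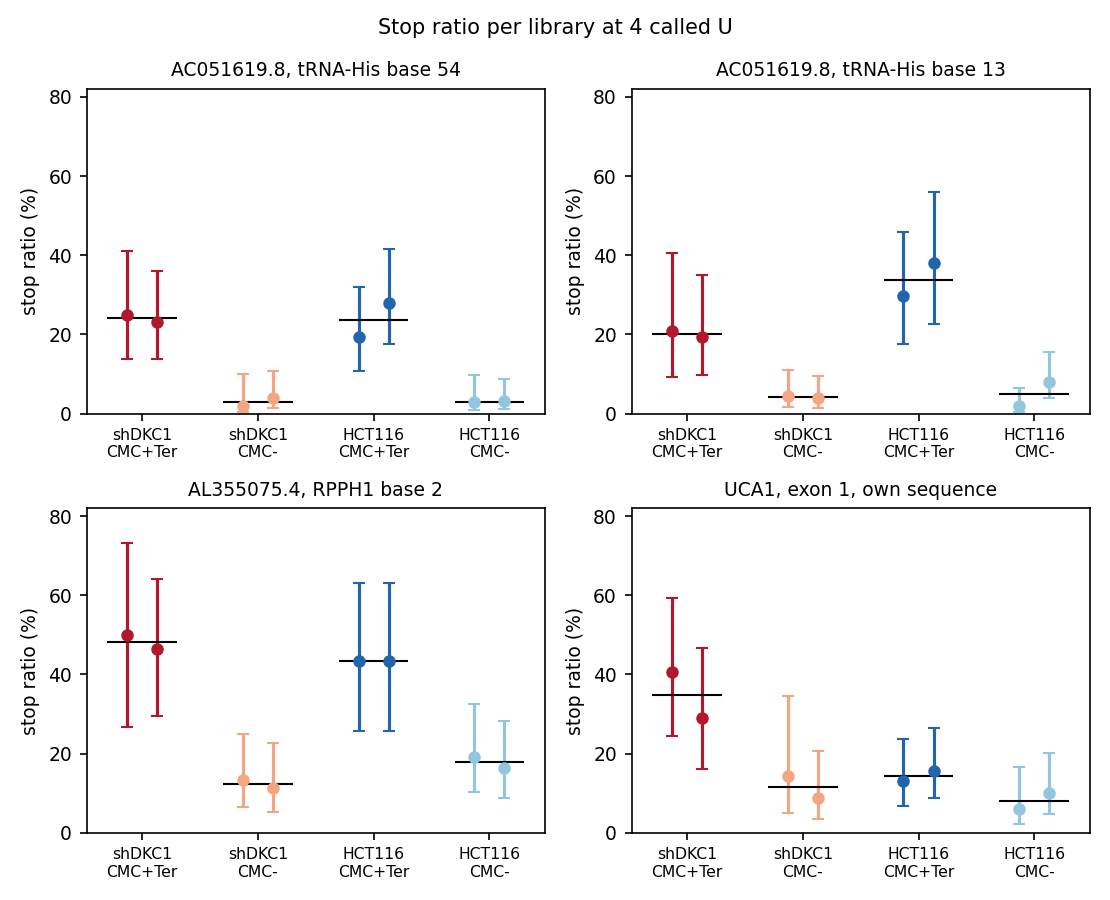
Stop ratio in percent per library at 4 U called in shDKC1 with CMC and Terminator over CMC-; points are libraries, bars are 95% Wilson intervals that cover counting error only, and black lines are means of 2 replicates. At tRNA-His base 54 the treated libraries sit at 19.2% to 28%, above controls of 1.89% to 3.90%, and UCA1 is higher with Terminator in shDKC1 (40.7% and 29%) than in HCT116 (13.1% and 15.6%).

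The U at 20343410 of AL355075.4 is base 2 of RPPH1, the RNA of RNase P, as RefSeq places it on chromosome 14. In shDKC1 it stopped 7 of 14 and 13 of 28 reads with Terminator, against 7 of 53 and 6 of 53 without CMC. In HCT116 it stopped 10 of 23 reads (43.5%) in each Terminator replicate, against 9 of 47 and 9 of 55 (19.1% and 16.4%). In HEK293T it stopped 33.8% and 44.1% with Terminator, against 17.2% and 13.6%. Stop reads were alike between treated and control libraries of HCT116, and covering reads were about 23 against 47 and 55. The log2 change of the ratio was 1.95 in shDKC1 (edgeR adjusted p = 7.22e-04) and 1.28 in HCT116 (adjusted p = 0.0153). Without the coverage offset and with TMM scaling the change of stop reads was 0.40 (adjusted p = 0.529) and 0.01 (adjusted p = 0.987). The base reached 10 stop reads in treated libraries only. The HCT116 call held in 8 of 15 alternatives and was lost with DESeq2 (adjusted p = 0.142), with library totals (0.48; adjusted p = 0.436) and without any 1 of the 4 HCT116 libraries (adjusted p from 0.0879 to 0.177). The shDKC1 call held in 10 of 14, and was also lost with library totals (0.83; adjusted p = 0.175) and without replicate 2 of either group (adjusted p = 0.0526 in both).

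AC073140.1 gave calls inside RNY5, whose 84 bases RefSeq places at 148941488 to 148941571 on chromosome 7. The G at 148941533, base 46 of the Y RNA, had 12.7% and 11.1% in HEK293T with Terminator, against 6.46% and 4.13% in CMC-. The log2 change was 1.15 (edgeR adjusted p = 0.0161). The call held in 7 of 13 alternatives and was lost with TMM scaling (0.10; adjusted p = 0.934), with library totals (0.90) and without any 1 of the 4 libraries (0.89 to 1.47; adjusted p from 0.0533 to 0.309). The next base, the U at 148941534, had 9.32% and 8.21% in HCT116 with Terminator, against 5.58% and 3.03%, a log2 change of 1.04 (adjusted p = 0.0434) that was called in 6 of 16 alternatives. The U at 148941532 was listed in all 10 tables, with 7.19% to 16.5% in treated libraries and 7.06% to 8.44% in controls. Stops here ran over neighbouring bases rather than standing on a single U.

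In AC009133.5 both calls were in HEK293T with Terminator and both fall on MAZ mRNA sequence. The A at 29808702 had 12.6% and 10.0%, against 3.78% and 2.55% in CMC- (log2 change 1.80; edgeR adjusted p = 0.00647). This call held in 8 of 11 alternatives and was lost with TMM scaling (0.83; adjusted p = 0.412) and without CMC- replicate 1 or 2 (adjusted p = 0.0845 and 0.136). The U at 29810098 had 14.5% and 12.9%, against 5.29% and 8.09% (log2 change 1.05; adjusted p = 0.0465), and was called in 6 of 13 alternatives. With CMC alone these bases had 4.92% and 4.11%, and 6.07% and 9.07%, close to the same CMC- values.

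UCA1 held the only call on own sequence. The U at 15829123, in exon 1, stopped 11 of 27 and 9 of 31 reads (40.7% and 29%) in shDKC1 with Terminator, against 3 of 21 and 4 of 45 (14.3% and 8.89%) without CMC. In HCT116 it stopped 8 of 61 and 10 of 64 (13.1% and 15.6%), against 3 of 49 and 6 of 60 (6.12% and 10.0%). Only treated libraries reached 10 stop reads, 1 in each cell population. The log2 change was 1.59 in shDKC1 (edgeR adjusted p = 0.0193) and 0.80 in HCT116 (adjusted p = 0.205). With library totals in place of the offset the HCT116 change passed (1.31, adjusted p = 0.0429). The shDKC1 call held in 7 of 12 alternatives. It was lost with DESeq2 (adjusted p = 0.18), with TMM scaling (adjusted p = 0.059), and without Terminator replicate 2 (adjusted p = 0.164), CMC- replicate 1 (adjusted p = 0.12) or CMC- replicate 2 (adjusted p = 0.163). The difference between shDKC1 and HCT116 was 0.80 ± 0.53 on the log2 scale and did not pass the test (unadjusted p = 0.355). The U at 15829093 of UCA1 stopped 5 of 11 and 8 of 16 reads in HCT116 with Terminator, against 1 of 11 and 3 of 15, and had too few reads for a test.

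MIR663AHG and AD000090.1 gave 8 of the 12 calls in shDKC1 and 11 of the 15 in HCT116, all at positions classed as rRNA sequence. Of the 187 MIR663AHG positions, 71 had the same 31 bases as an rRNA position and 140 shared a run of 21 bases. For AD000090.1 these counts were 57 and 90 of 128. Where an identical 31-base window was listed for both a lncRNA and an rRNA copy, the lncRNA had 0.501 to 0.739 times the coverage in MIR663AHG and 0.168 to 0.382 times in AD000090.1, over tables. The median difference in stop ratio from the rRNA copy lay between -1.16 and 1.19 percentage points over the tables of both genes.

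MIR663AHG had 6 calls in HCT116 and 4 in shDKC1. The G at 26208436 had 8.70% and 7.37% in shDKC1 with Terminator, against 3.70% and 3.29% without CMC, and 8.89% and 6.59% in HCT116, against 3.99% and 3.31%. The log2 change was 1.19 (edgeR adjusted p = 1.02e-05) and 1.07 (adjusted p = 2.88e-05). The C at 26208427 had 4.77% and 4.35% in HCT116, against 1.91% and 1.81% (log2 change 1.29; adjusted p = 2.78e-05), with 1091 to 1493 covering reads per library. The U at 26209400 had 12.3% and 10.7% in shDKC1, against 2.04% and 5.91% (log2 change 1.45; adjusted p = 0.00155). The U call in shDKC1 held in 12 of 16 alternatives. It was lost with DESeq2 (adjusted p = 0.0566), with TMM scaling (0.93; adjusted p = 0.054) and without replicate 1 of Terminator or CMC- (0.85 in both; adjusted p = 0.209 and 0.207). Of these 3 bases, 2 are not U, and those 2 reached the minimum of stop reads in CMC- libraries alone.

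In AD000090.1 the stretch from 35575614 to 35575757 on chromosome 19 aligns to nucleotides 1930 to 2073 of 28S rRNA, with 139 identical and 5 mismatched bases (96.5%). A second stretch, 35575777 to 35575839, aligns with 58 identical bases, 4 mismatches and 1 gap. The called G at 35575669, A at 35575670 and A at 35575671 lie 1, 2 and 3 bases after the mismatch at 35575668 and 6, 5 and 4 bases before the next one. The A at 35575671 stopped 30 of 87 and 38 of 151 reads (34.5% and 25.2%) in shDKC1 with Terminator, against 3 of 54 and 4 of 63 (5.56% and 6.35%) without CMC. In HCT116 it stopped 25 of 110 and 36 of 119 (22.7% and 30.3%), against 3 of 54 and 5 of 79 (5.56% and 6.33%). The log2 change was 2.27 in shDKC1 and 2.15 in HCT116 (edgeR adjusted p = 2.40e-05 in both), and it was called in all 16 alternatives in each. With 3 to 5 stop reads in the CMC- libraries, it entered the test through treated libraries. It is an A, not a U.

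Coverage was low at this place. At 35575640, 31 bases upstream, the shDKC1 libraries had 3937 and 4218 covering reads with Terminator, against 4385 and 4801 without CMC. The HCT116 libraries had 3958 and 4166 with Terminator, against 4456 and 5467. At 35575671 the same libraries had 54 to 151. How reads with several matches were placed by the authors is not given in the sources used here, and its part in these calls was not tested. The other calls in AD000090.1, at 35575822 and 35575823, had stop ratios under 1%, such as 0.774% and 0.619%, against 0.182% and 0.271%, at the U at 35575823 in shDKC1.

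**Figure D5:**
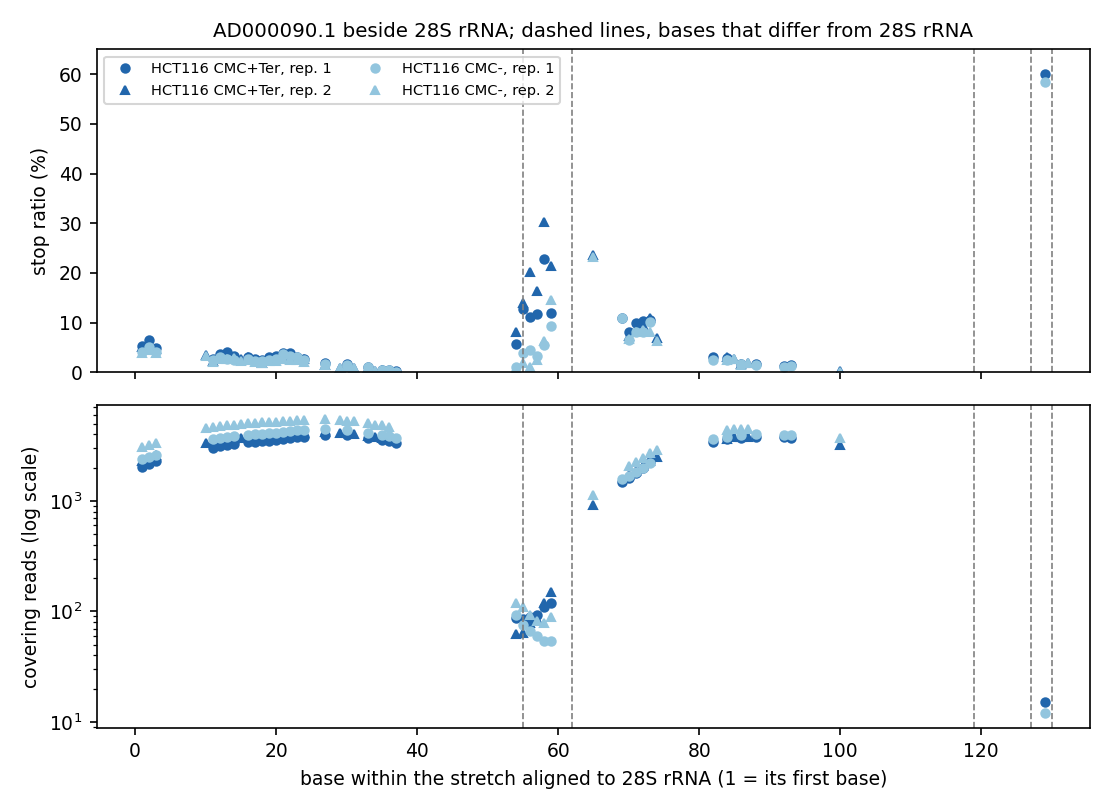
Stop ratio in percent (top) and covering reads on a log scale (bottom) at listed bases of the AD000090.1 stretch that aligns to 28S rRNA, for HCT116 libraries with CMC and Terminator (dark) and CMC- (light), replicates as circles and triangles; dashed lines mark bases that differ from 28S rRNA. The called bases, with stop ratios of up to 30.3%, lie between the first 2 dashed lines. Covering reads number 54 to 119 at the last of them, against 3958 to 5467 at 35575640 upstream. They were already 62 to 119 at 35575667, just before the first dashed line.

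The effect of Terminator over CMC alone could be tested in HEK293T, and here the listing does not fix the direction. None of 26 lncRNA positions was called, beside 0.897% of all positions and 1.25% of all U called higher and 0.00675% of all positions called lower. Their median log2 change was 0.05, beside 0.22 over all positions, and 17 of 26 lay above 0. The 2 that passed an unadjusted edgeR p of 0.05 were in AC009133.5, the A at 29808702 with a log2 change of 1.30 (adjusted p = 0.152) and the U at 29810098 with 0.81 (adjusted p = 0.38). These are the bases called above against CMC-, and the comparisons share the Terminator libraries. DANCR 52712867 had a log2 change of -0.14. With library totals in place of the coverage offset 5 of the 26 were called.

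The response to CMC and Terminator did not differ detectably between shDKC1 and HCT116. None of 72 positions was called, beside 0.0% of all positions called higher and 0.0115% called lower (0.0311% of all U), and DESeq2 called none. Before adjustment none of the 72 had an edgeR p under 0.05, while 673 of all 26153 did (2.57%). The log2 differences ran from -0.63 to 0.80, with a median of -0.06 beside -0.07 over all positions, and 24 lay above 0. At tRNA-His the difference was -0.06 at 45200431 and -0.59 at 45200472. At RPPH1 base 2 it was 0.67. With 2 replicates and few stop reads at these bases, the test does not show that the responses were alike.

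Transcript level was estimated from covering reads of the CMC- libraries at the most covered base of each gene that all 4 Terminator tables of shDKC1 and HCT116 listed. Of 2438 genes, 12 were lncRNAs. None of these was called at an adjusted p under 0.05, beside 0.041% of all genes called higher and 0.041% called lower. One had an unadjusted p under 0.05, and DESeq2 called none. UCA1 had 21 and 45 covering reads in shDKC1, against 49 and 60 in HCT116, or 0.711 and 1.53 RPM against 1.80 and 1.92 RPM. Its log2 change was -0.77, with an SE of 0.29 (edgeR adjusted p = 0.636). AP001496.2 had 81 and 72 reads in shDKC1, against 58 and 55 in HCT116, a log2 change of 0.39 that did not pass the test. Over the 12 genes the log2 change ran from -0.77 to 0.50, with 6 below 0. Of the 12, 10 were read at shared sequence, so these values follow the RNA that supplied the reads.

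Known synthase contexts were rare among lncRNA U and among all listed U. The sequence GTTCNANNC with the listed U just before its first C, the TRUB1 context, occurred at 1 of 611 lncRNA U (0.164%) and 0.137% of all 227938 listed U, and that 1 was the tRNA-His base described above. TNTAA or TNTAG with the listed U just before its A, the PUS7 context, occurred at 12 (1.96%) and at 1.25% of all listed U. The 3 of these on own sequence were in AC131009.3, UCA1 and DANCR. The U at 131934750 of AC131009.3 stopped 71.4% of 7 reads in HEK293T with Terminator replicate 1, against 12.5% of 8 in CMC-. The U at 15829170 of UCA1 stopped 16%, against 10.8%, in HCT116 with CMC alone replicate 2. The U at 52713986 of DANCR stopped 34.9% with Terminator and 25.0% with CMC alone, against 21.8% in CMC-, in HEK293T replicate 2. TTTTG at the position occurred at 1.80% of lncRNA U and 1.96% of all listed U, and runs of TTTT holding the position at 3.11% and 4.24%. A match is a description of letters on the RNA strand and not evidence of modification.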

How the data were processed

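Stop reads and covering reads at listed positions are counts in the Terminator tables of HCT116 and shDKC1, as deposited by the authors. In the other tables the authors deposited estimated counts, with fractions, per the file headers and values. The tables also give stop reads as RPM, scaled by the authors, whose totals per library (8.65 to 31.3 M) were used in 1 alternative. Per the submitters' processing notes, cutadapt 2.8 and STAR were used with hg38. STAR's version and the handling of reads with several matches are not given in the sources used here.

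Estimated counts were rounded and fitted with edgeR 4.0.16 in R 4.3.3 (glmQLFit, glmQLFTest), with log covering reads as offset and the replicate number as block, because the series design pairs a treated with an untreated library in every replicate. Deviations of same-numbered libraries correlated at 0.154 (HCT116), 0.321 (shDKC1) and 0.574 (HCT116 CMC and control columns), and at 0.0575 to 0.353 in HEK293T. The 2 control columns equalled the same-numbered HCT116 CMC- library at 22.1% and 21.7% of shared positions (tolerance 0.0001). The HEK293T comparisons share CMC- libraries. DESeq2 1.42.0 was an alternative. Transcript levels used TMM scaling and no block. The tests were also run on simulated counts with a set dispersion of 0.02. The simulation did not include the listing rule, so it does not check calls at positions selected by it. Wilson intervals (95%) cover counting error only: without molecular identifiers, reads need not be separate molecules.

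Named positions were the called U with the largest changes (at most 2 per gene and 1 per sequence), up to 3 called positions of other bases, and, for genes with most positions or on the gene lists, the U in most tables. Where fewer than 3 U were called, the tested U with the smallest p-values were added. FGD5-AS1, AP001496.2, the neighbours of called bases, other tRNA and Y RNA bases and the U in PUS7 contexts were chosen after their values were seen. The members and lists were chosen with earlier results of these data known.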

Additional observations from a re-analysis of the deposited data

How the results depend on the processing

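The number of called lncRNA positions depended on the processing. In HEK293T with Terminator over CMC- it was 3, and 9 with library totals, 1 with TMM scaling, 0 with DESeq2, 7 when the 4 libraries of the comparison were fitted on all positions of their own tables, and 0 to 4 leaving out 1 library. It was 0 without either Terminator library or either CMC- library. The higher counts on leaving out 1 library came from the libraries with CMC alone, which this comparison does not use. With library totals 5 were called for Terminator over CMC alone, against 0. In HCT116 with Terminator it was 15, and 6 with DESeq2. Leaving out 1 HCT116 library gave 7 without Terminator replicate 1, 6 without replicate 2, 8 without CMC- replicate 1 and 7 without replicate 2. Counts of up to 15 came only from leaving out shDKC1 libraries, which this comparison does not use. In shDKC1 it was 12, and 6 with DESeq2 and 6 on its own tables. Leaving out 1 library of the HCT116 and shDKC1 fit, unused HCT116 libraries included, gave 6 to 12. It was 6 without shDKC1 Terminator replicate 2 or CMC- replicate 2. The own-table fits were chosen after seeing the data. Without the replicate block the counts were 3, 14 and 12 in HEK293T, HCT116 and shDKC1. CMC alone, the difference between shDKC1 and HCT116, and transcript levels gave 0 calls in each alternative run. The median treated stop ratio of lncRNA U, 21.1% over the Terminator libraries, was 6.93% at coverage of at least 50 reads. It was 31.7% without U whose whole window was also listed for a position outside these lncRNAs. Own-sequence U, a narrower set, had medians of 22.4% to 55.6% in these libraries. Single called positions lost the call in 111 combinations of position and alternative; their direction was set by the listing rule and says nothing of stability. Changes that did not pass the test reversed at 10 combinations. For Terminator over CMC alone, DANCR 52712867 was 0.68 with library totals, 0.0115 with TMM scaling and -0.48 to 0.32 leaving out 1 library, and AC073140.1 148941533 was -0.30 with TMM scaling. For shDKC1 over HCT116, AC051619.8 45200431 was 0.0328 with TMM scaling and -0.43 to 0.66 leaving out 1 library, and 45200472 was -1.66 to 0.0131. The cause of these differences was not tested. Low coverage of own sequence limited what could be tested.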
